A study of Mus musculus with 82 samples.

Results

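The HoxC cluster holds 9 homeobox genes on chromosome 15 of the mouse, Hoxc4, Hoxc5, Hoxc6, Hoxc8, Hoxc9, Hoxc10, Hoxc11, Hoxc12 and Hoxc13. They were taken by name, as 9 of the 21829 protein-coding genes of the annotation (GENCODE vM21, mm10). All 9 genes lie on the plus strand, with Hoxc13 at the 5′ end (start at position 102921103) and Hoxc4 at the 3′ end (start at position 103034395). Each gene was followed in a window made of its coding span and 1 kb on either side. The windows and the stretches between them span 102920188 to 103036989, or 117 kb, of which the posterior segment from Hoxc13 to Hoxc10 takes 51.9 kb and the anterior segment from Hoxc9 to Hoxc4 takes 64.9 kb.

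The samples were mouse stembryos, aggregates of mouse embryonic stem cells that form an elongating body axis in culture after a pulse of the Wnt agonist Chiron between 48 h and 72 h of aggregation. All samples received that pulse or, at 48 h, were collected before it, and each library pools many stembryos. The data comprised 82 samples and 80 lists of called regions, of which 61 came from wild-type (wt) stembryos: 13 for H3K27ac, 6 for H3K27me3, 16 for RAD21, 8 for NIPBL, 8 for PolII, 5 for pSer2 PolII, 3 for CDX2 and 2 for CTCF. The other 19 lists came from stembryos with edited CTCF sites in the HoxD cluster on chromosome 2, namely Del(CBS1), Del(CBS2), Del(CBS4), Del(CBS1-2), Del(CBS1-5) and Ins(2xCBS-d4d8), none of which is an edit of HoxC. The Del(CBS1-5) cells were derived from blastocysts and the others from a commercial wt line. The lists held 147 to 71196 regions, and their lowest background, which follows depth, was 1.12 to 7.21 fragments per base. The labels do not say whether samples of 1 stage came from separate cultures. The p-values below concern the order of the stages in these samples, most with 1 library or 1 mean a stage. They do not measure the spread between cultures. Whether a mark was lower in a cell or present in fewer cells cannot be told apart in such bulk material.

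Genes of a Hox cluster are switched on in the order of their position, from the 3′ end to the 5′ end, and thereby give the body axis its successive levels. Among the HoxC genes, Hoxc4, Hoxc5 and Hoxc6 act at neck and upper trunk levels, Hoxc8 and Hoxc9 in the thorax, Hoxc10 and Hoxc11 in the lumbar and sacral region, and Hoxc13 in the tail, hair and nails. Acetylation of histone H3 at lysine 27 (H3K27ac) is found on promoters and enhancers in use. Trimethylation of the same residue (H3K27me3) is laid down by Polycomb on silent developmental genes. PolII transcribes the genes, and its pSer2 form is engaged in elongation. Cohesin, of which RAD21 is a subunit, extrudes chromatin loops after loading with the help of NIPBL, and stops preferentially at CTCF that faces it in a given orientation. CDX2 is a homeodomain factor of the growing tail end and a known activator of trunk Hox genes.

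CTCF was called at 5 sites of HoxC in both wt lists (72 h and 168 h), and 15 loci carried a region in any of the 8 CTCF lists. The 5 sites lay between Hoxc12 and Hoxc11 (102943202 to 102944145), at the start of Hoxc10 (102965987 to 102966862), between Hoxc9 and Hoxc8 (102986987 to 102987865), between Hoxc8 and Hoxc6 (103007257 to 103007618) and over the start of Hoxc5 (103013237 to 103013994). No site of both lists lay between Hoxc5 and Hoxc4 windows, a stretch of 17.3 kb. The strongest match in each site, or within 100 bp of it, to a CTCF matrix learnt on 1500 sites elsewhere in the genome is shown because the orientation of CTCF bears on the side from which it halts cohesin. Capitals mark the 13 matched bases, and each sequence reads 5′ to 3′ on the strand of the match (GRCm38, from the reference genome).
Hoxc12 to Hoxc11 (minus, 102943457 to 102943469): ccgctctggCCAGCAGGGGTCAtcccgtcc
Hoxc10 start (plus, 102966788 to 102966800): cccccttcCCGGATGGGGGAAaaaagatgt
Hoxc9 to Hoxc8 (plus, 102987819 to 102987831): ctcgggagACGAAAGAGGGCAggcatcaaa
Hoxc8 to Hoxc6 (plus, 103007489 to 103007501): cctcttgcCCTGTAGGGGGACtggagcccc
Hoxc5 start (plus, 103013702 to 103013714): ccgagtcgGCACCAGGTGTCGctgtgagct
The most posterior of the 5 matches lay on the minus strand and the other 4 on the plus strand, and it scored 14.7 against 9.21 to 10 for the others (threshold 8.33). A weaker match on the opposite strand also passed the threshold between Hoxc12 and Hoxc11 (plus, 8.42) and between Hoxc8 and Hoxc6 (minus, 8.77). The orientation of these sites is therefore less clear. The Hoxc10 match lies at the start site, just beyond the regions called in the wt lists but inside the region merged over all lists. Matches passed this threshold in 61.4% of 1499 test sites (95% Clopper-Pearson interval 58.9 to 63.9) and in 5.14% of positions 1000 bp away (4.07 to 6.38), so a match is a description of the letters and not a proven binding sequence.

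The Hoxc10 and the Hoxc9 to Hoxc8 sites were the most regularly occupied. Each was called in 8 of 8 CTCF lists and in 16 of 16 wt RAD21 lists. The Hoxc10 site stood above 98.3% of the list at 72 h and above 98% at 168 h by fold enrichment, and the Hoxc9 to Hoxc8 site above 94.5% and 89.2%. The Hoxc5 site was called in 7 of 8 CTCF lists and in 16 of 16 wt RAD21 lists, at 76.9% and 89.4% of the wt lists. The Hoxc12 to Hoxc11 site was called in 6 of 8 CTCF lists and 15 of 16 wt RAD21 lists, at 30.7% and 60.9%. The weakest, between Hoxc8 and Hoxc6, was called in 3 of 8 CTCF lists and in 1 of 16 wt RAD21 lists, and stood above 18.3% and 17.4% of the wt lists. It is the site lost when regions are held to a −log10 q of at least 5, which leaves 4 of the 5. Of these 5 sites the Del(CBS4) list at 120 h held only the Hoxc10 and the Hoxc9 to Hoxc8 site, and it was the shortest CTCF list, with 25762 regions against 39703 to 64255.

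**Figure D1:**
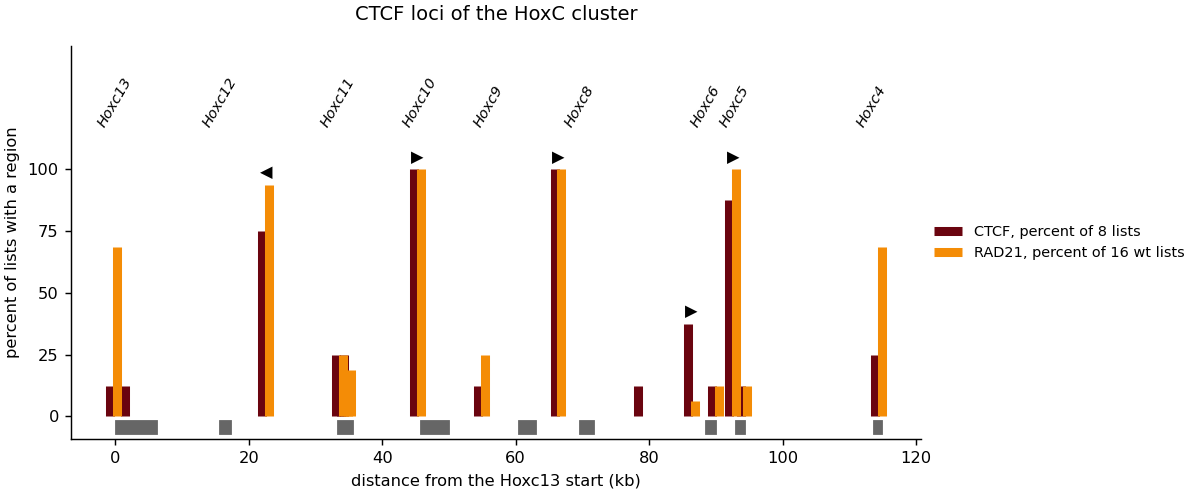
CTCF loci of the HoxC cluster by distance from the Hoxc13 start in kb. Bars give the percent of the 8 CTCF lists and of the 16 wt RAD21 lists with a region at each of the 15 loci, grey boxes are coding spans, and triangles give the strand of the best motif match at the 5 loci called in both wt CTCF lists. The Hoxc10 site and the Hoxc9 to Hoxc8 site reach 100% in both.

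No steady change of RAD21 with time was called at the 3 of these sites that could be tested. Per library, the fragments over a site were divided by the sum over all 20003 tested CTCF sites with a RAD21 region in all 16 wt lists, and the means of the 8 stages from 48 h to 168 h were ranked against time. Over the genome 1191 sites (5.95%) rose and 1056 (5.28%) fell by an exact two-sided permutation test of Spearman's rho with Benjamini-Hochberg adjustment. Of the 3 HoxC sites tested 0 were called, and 0 had an unadjusted p under 0.05. Spearman's rho was 0.405 at the Hoxc10 site (adjusted p = 0.508, exact permutation test), −0.429 between Hoxc9 and Hoxc8 (adjusted p = 0.48) and 0.524 at the Hoxc5 site (adjusted p = 0.361). Pearson's r was 0.408, −0.453 and 0.685, with adjusted exact permutation p of 0.459, 0.408 and 0.14. The labels file the cells of some libraries under cell type and of others under cell line. Within these groups rho was 0.464 and 0.107 at the Hoxc10 site, −0.536 and −0.821 between Hoxc9 and Hoxc8, and 0.0357 and 0.464 at the Hoxc5 site. The rho of −0.821 had an exact permutation p of 0.0341 (adjusted p = 0.147). With the replicate number as a block, rho at the Hoxc5 site turned to −0.143 (adjusted exact permutation p = 0.807).

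The split of cohesin between the Hoxc9 to Hoxc8 site and the Hoxc10 site, the next one in the posterior direction, is independent of library scale. At 48 h the Hoxc9 to Hoxc8 site held 47% of the fragments of the pair (95% Clopper-Pearson interval 40.8 to 53.2), and in the libraries of 72 h it held 41.7% and 43.4%. It held 59.9% and 44.9% at 84 h, and 56.2%, 49.6% and 43.3% in the 96 h libraries. The 108 h libraries gave 58.6% and 48.2% and those of 132 h 45.4% and 37.7%. At 144 h the values were 43%, 36.6% and 39.3%, and the 168 h library gave 40.5% (34.4 to 46.7). The 3 libraries at 48 h and 72 h and the 6 from 132 h on were all below 50%, whereas between 84 h and 108 h the 7 libraries lay on either side of it. The values above 50% all came from replicate 1 of their stage, which has a cell type label, and the other cell type library of 96 h gave 49.6%. Replicate 1 held the highest share of its stage at 84, 96, 108, 132 and 144 h. A further share was taken over 4 HoxC sites, those of both wt CTCF lists without the one between Hoxc8 and Hoxc6. Of their fragments the Hoxc12 to Hoxc11 site held 3.5% at 48 h and 9.56% at 168 h. In the libraries in between where it was called, it held 5.32% to 8.61%. Intervals cover counting error only.

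**Figure D2:**
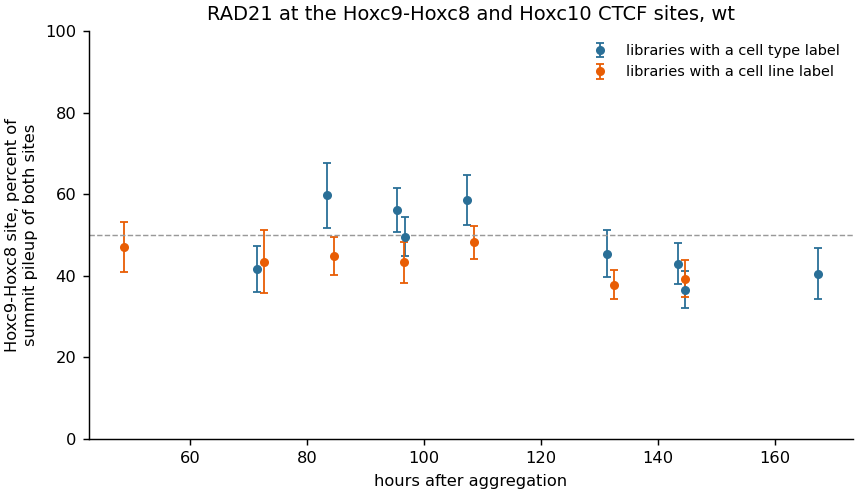
RAD21 fragments over the summit of the Hoxc9 to Hoxc8 site as a percent of the sum of that site and the Hoxc10 site, against hours after aggregation. Each point is 1 of the 16 wt libraries, bars are 95% Clopper-Pearson intervals, colours give the label under which the cells are filed, and the dashed line is 50%. From 132 h on every point lies below the line.

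CDX2 regions were absent from HoxC at 72 h, numbered 12 at 96 h and 8 at 120 h, with 1 library a stage. The 72 h list held only 147 regions over the whole genome. The strongest lay in the coding span of Hoxc5, at 13.6-fold enrichment at 96 h (above 98.8% of the list) and 9.73-fold at 120 h (95.7%), followed by Hoxc4 at 9.53-fold (93.7%) and 7.28-fold (83.7%). Between Hoxc8 and Hoxc6 there were 3 regions at 96 h and 4 at 120 h, and the posterior segment held 2 weak regions at 96 h (3.84- and 4.9-fold) and 0 at 120 h. A CDX2 region lay within 1 kb of the start of 3 members at 96 h, against 1.67% of all genes, and of 3 at 120 h, against 0.573%. The CDX motif TTTATNG (either strand, within 50 bp of the summit) was present at 29.4% of 4654 summits at 96 h (28.1 to 30.7) and 34.5% of 2351 at 120 h (32.6 to 36.5), against 5.24% and 5.49% of positions 500 bp away. In HoxC 8 of 12 regions at 96 h and 7 of 8 at 120 h held it. The copies found in the regions of 5 places are given as the letters under these summits, 5′ to 3′ on the strand of the motif (GRCm38), with the motif in capitals.
Hoxc9 coding span (minus, 102982325 to 102982331): ggtaattcgctTTTATTGagtcctcatccc
Hoxc8 to Hoxc6, near Hoxc8 (plus, 102992957 to 102992963): tgtcatttgctTTTATAGagaatagaatga
Hoxc8 to Hoxc6, near Hoxc6 (plus, 103008033 to 103008039): ccgtttatggcTTTATTGctacccattgat
Hoxc5 coding span (minus, 103014622 to 103014628): ggatcgtaaaaTTTATGGccgcaggttttt
Hoxc4 coding span (plus, 103035337 to 103035343): cccccataaatTTTATGGcttagctactct
The Hoxc5 region and those near Hoxc8 and near Hoxc6 were called at both 96 h and 120 h over the same motif copy. The Hoxc9 region was called at 96 h only.

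H3K27ac was first called over Hoxc9, Hoxc8, Hoxc5 and Hoxc4 at 72 h and over Hoxc6 at 96 h, while regions over Hoxc13, Hoxc11 and Hoxc10 were already present at 48 h. The values are percent of the gene window inside called regions, in the 9 unnumbered wt libraries at 48, 72, 84, 96, 108, 120, 132, 144 and 168 h. Hoxc4 was covered over 0, 11.1, 40.3, 50.9, 50.3, 52.5, 25.3, 11.8 and 35.4% of its window. Hoxc5 was covered over 0, 10.3, 43.8, 51.2, 42.1, 27.7, 22.6, 18.9 and 34.2%. Both genes at the 3′ end thus had no region at 48 h and their highest values between 96 h and 120 h.

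Hoxc6 was covered over 0, 0, 0, 16.7, 0, 8.33, 8.51, 11.7 and 36.2% of its window. Hoxc8 was covered over 0, 21.2, 15.5, 54.9, 50.5, 48.3, 51.4, 46.8 and 54.3% of its window. From 96 h on it stayed between 46.8% and 54.9% in these libraries. Hoxc9 was covered over 0, 14.5, 7.69, 25.8, 20.5, 17.8, 24.1, 13.1 and 31%. The windows of these 3 central genes held no region at 48 h, although 1 lay at the start of Hoxc9, which is outside the window of its coding span.

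Hoxc10 was covered over 4.33, 7.66, 0, 0, 12, 11.1, 16.7, 15.6 and 20.7% of its window, and was therefore empty at 84 h and 96 h between an early and a late period of coverage. Hoxc11 was covered over 10.6, 22.9, 25.3, 28.1, 7.88, 0, 0, 15 and 51.2%, with a gap at 120 h and 132 h. Hoxc12 had no H3K27ac region in any of the 13 wt lists. Hoxc13 was covered over 2.68, 10, 2.83 and 4.07% from 48 h to 96 h and over 0% afterwards. The numbered libraries at 96 h had no region over Hoxc13 or Hoxc11, in contrast to the unnumbered 96 h library, so that the early coverage of these genes at 96 h rests on 1 library of 3.

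**Figure D3:**
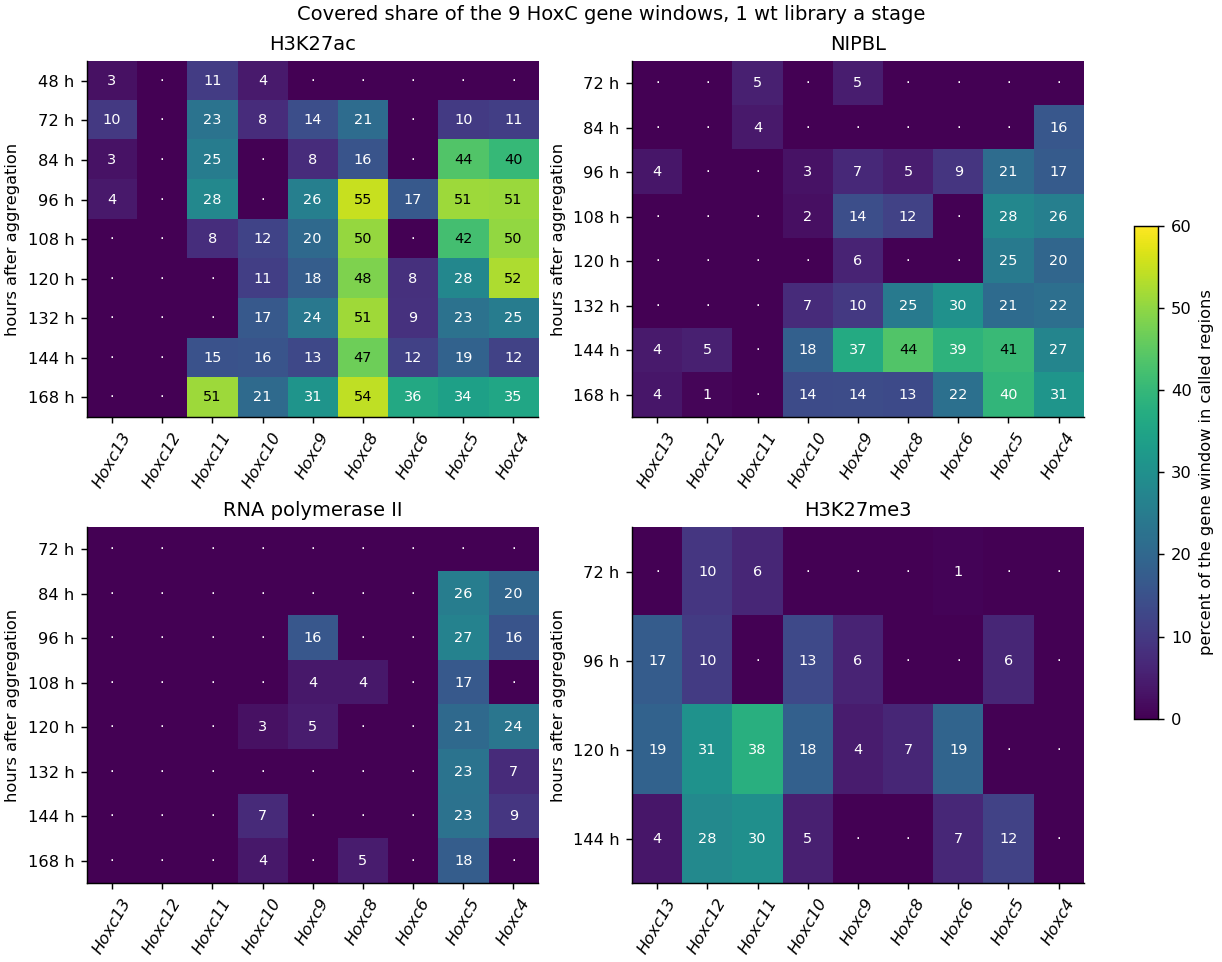
Percent of each HoxC gene window inside called regions (colour and printed value, dots are 0) for H3K27ac, NIPBL, RNA polymerase II and H3K27me3, by stage in hours after aggregation, with 1 unnumbered wt library a stage. H3K27ac and NIPBL fill the windows from Hoxc9 to Hoxc4, and polymerase is found mainly at Hoxc5 and Hoxc4. Among the windows, H3K27me3 lies mainly in those from Hoxc13 to Hoxc10, and the stretches between genes are not shown.

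The covered share was ranked against time in all 14961 genes with H3K27ac at any stage, by an exact two-sided permutation test over the 9 stages. Over the genome 12 genes (0.0802%) rose and 237 (1.58%) fell at an adjusted p under 0.05, and 3623 had an unadjusted p under 0.05. Of the 8 members tested 0 were called and 3 had an unadjusted p under 0.05. Hoxc10 had rho = 0.828 (r = 0.817), with exact permutation p of 0.00875 and 0.00817 and adjusted p of 0.0954 and 0.0775. Hoxc13 had rho = −0.785 (adjusted exact permutation p = 0.139) and Hoxc6 had rho = 0.757 (adjusted p = 0.144).

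The covered share does not record how dense the mark was. Each list also yields the background that the peak caller measured around each summit, over a stretch of several kilobases. Divided by the lowest background of the list, which is the level of the genome at large, it gives a local density of fragments around the summit. Neighbouring genes share part of that stretch. This measure was chosen after seeing the data. Below, the value of a gene is that at the summit with the most fragments in its window.

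By local density Hoxc5 and Hoxc4 rose by 84 h, before Hoxc9 and Hoxc10. The values of 72 h followed no such order, with Hoxc11 at 2.01 and Hoxc4 at 1.74. At 72 and 84 h Hoxc5 stood at 2.61 and 9.18 times the lowest background, and in the 3 libraries of 96 h at 26.8, 23.9 and 27.8. It then stood at 16.3 at 108 h, and in the 3 libraries of 120 h at 26, 20.9 and 16. Values of 15.6, 14.9 and 27 followed at 132, 144 and 168 h. Hoxc4, at 1.74, 9.05 and 22.4 to 26.9 at 72, 84 and 96 h, had a similar course. Neither gene exceeded its highest 96 h value at a later stage.

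Hoxc6, first called at 96 h, then stood at 21.7 to 23.8, and in the 120 h libraries at 17.5 to 30. At 72 and 84 h Hoxc8 stood at 1.83 and 2.62, then at 13 to 13.8 in the 96 h libraries and 7.58 at 108 h. In the 120 h libraries it stood at 10 to 21.8, and later at 12.1, 13.3 and 25.2. At 72 and 84 h Hoxc9 stood at 1.88 and 2.47, and in the 3 libraries of 96 h at 4.95, 4.95 and 5.67. It stood at 7.03 at 108 h, and in the libraries of 120 h at 21.3, 16.4 and 9.24. Values of 14.7, 17.2 and 33.4 followed at 132, 144 and 168 h. By this measure the 3 libraries at 96 h and the 3 at 120 h did not overlap for Hoxc9, which was higher at 120 h. They did not overlap for Hoxc4 either, which was lower at 120 h (11.4 to 19.3 against 22.4 to 26.9). No share over all genes was taken, so neither difference can be told from a shift of the libraries at large. By covered share Hoxc9 overlapped, at 15.3 to 25.9% at 96 h and 5.6 to 17.8% at 120 h.

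At 48 and 72 h Hoxc10 stood at 1 and 1.61, it had no summit in the 84 h library or the 3 of 96 h, and it returned with 1.63 at 108 h. In the 3 libraries of 120 h it stood at 5.6, 3.72 and 2.89, and later at 5.72, 8.76 and 22.1 (132, 144 and 168 h). Up to 144 h Hoxc11 did not exceed 2.01, and it stood at 6.6 at 168 h. At Hoxc13 the values were 1 to 1.28 wherever a region was called. The early regions over Hoxc13, Hoxc11 and Hoxc10 thus lay on a local density close to that of the genome at large. So did the region over Hoxc10 at 108 h, unlike those from 132 h on. Low early density was not particular to these genes, since Hoxc9, Hoxc8, Hoxc5 and Hoxc4 stood at 1.74 to 2.61 at 72 h.

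**Figure D4:**
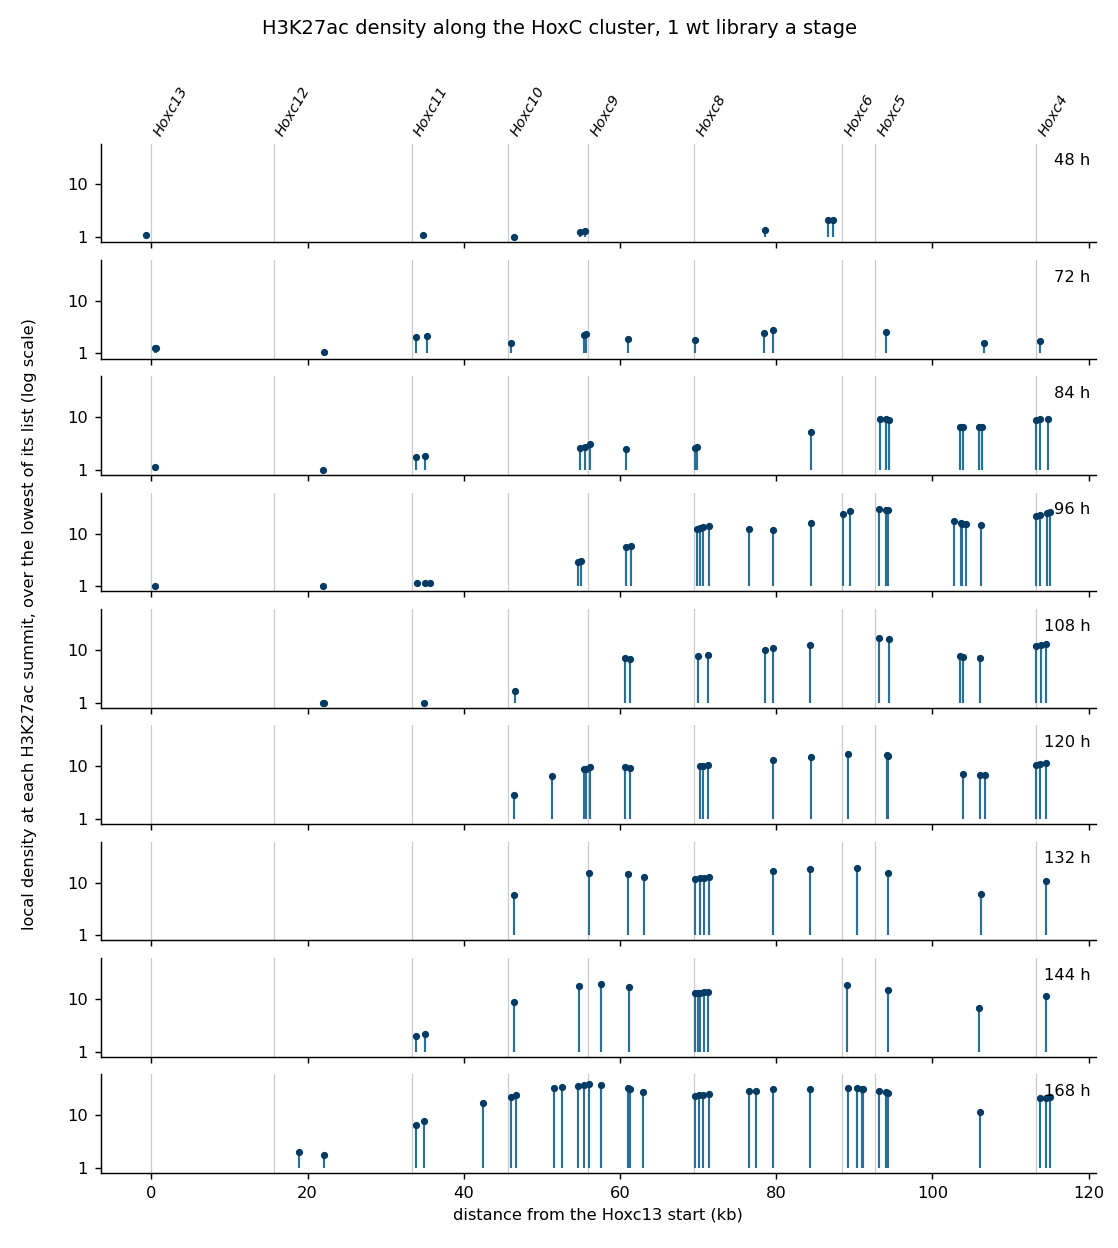
Local density at every H3K27ac summit of the HoxC cluster (background around the summit over the lowest background of its list, log scale) against distance from the Hoxc13 start in kb, with 1 unnumbered wt library a stage and grey lines at the gene starts. Dense summits lie from Hoxc5 to Hoxc4 at 84 h, from Hoxc8 to Hoxc4 at 96 h and from Hoxc10 to Hoxc4 at 168 h.

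Within a list these densities can be set against each other with no scaling between libraries. As none can lie below the lowest background, the percent also depends on how far Hoxc5 stood above it. At 72 and 84 h Hoxc9 stood at 72% and 26.9% of the local density of Hoxc5, and in the 3 libraries of 96 h at 18.5, 20.7 and 20.4%. It stood at 43.1% at 108 h, and in the 3 libraries of 120 h at 81.9, 78.5 and 57.8%. The later values were 94.2, 115 and 124% (132, 144 and 168 h). For Hoxc10 the value was 61.7% of Hoxc5 at 72 h, when both genes were close to the genome at large, and 10% at 108 h. In the 3 libraries of 120 h it was 21.5, 17.8 and 18.1%, and later 36.7, 58.8 and 81.9%. In each list from 108 h on Hoxc10 was below Hoxc9.

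**Figure D5:**
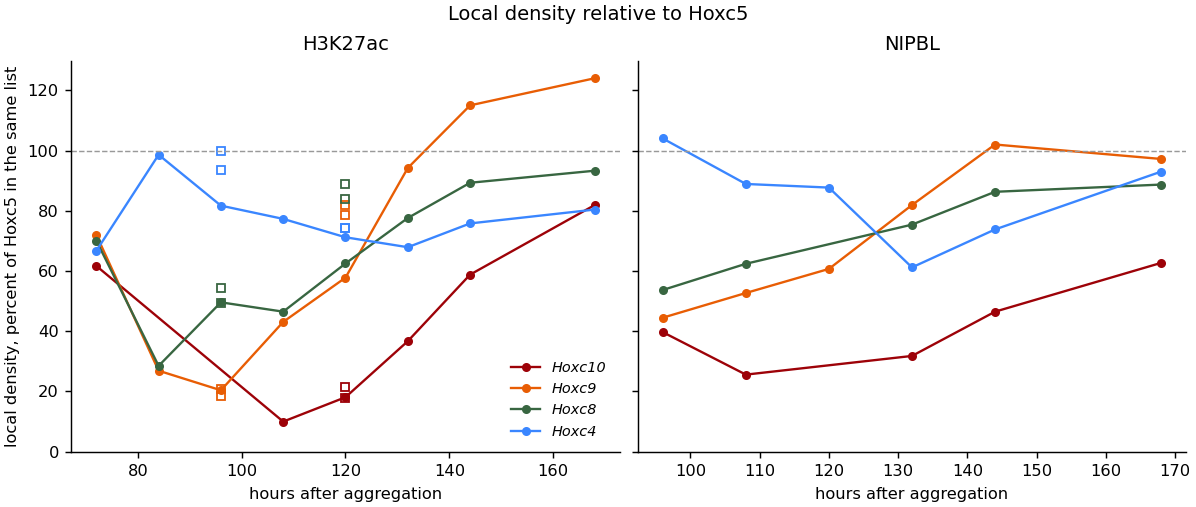
Local density at Hoxc10, Hoxc9, Hoxc8 and Hoxc4 as a percent of that at Hoxc5 in the same list, against hours after aggregation, for H3K27ac (left) and NIPBL (right) in wt. Filled circles joined by lines are the unnumbered H3K27ac libraries and the NIPBL libraries, open squares the numbered H3K27ac libraries at 96 h and 120 h, and the dashed line is 100%. In H3K27ac, Hoxc9 passes from 20.4% at 96 h to 124% at 168 h, and Hoxc10 from 10% at 108 h to 81.9%.

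Ranked against time over all genes, with the highest local density of each window and the value 1 where no region was called, Hoxc9 and Hoxc8 rose. Over the genome 87 of 14731 genes (0.591%) did so. Hoxc9 rose at every step of the 9 stages (rho = 1, r = 0.918, exact permutation p = 5.51e-06 for both, the smallest that 9 stages can give, adjusted p = 0.00738), with r = 0.981 without 48 h and 168 h. Hoxc9 was called with each stage left out in turn (adjusted exact permutation p of 0.00673 to 0.0363) and with the numbered libraries in the stage means (0.0226). Hoxc8 had rho = 0.9 and r = 0.905 (exact permutation p of 0.00203 and 9.81e-04, adjusted p of 0.0412 and 0.0256), but it was not called with the numbered libraries (0.0561) or with any stage left out other than 96 h. Hoxc10 had rho = 0.862 with adjusted exact permutation p = 0.0544, and its r of 0.789 had adjusted p = 0.0132. Hoxc6, Hoxc5 and Hoxc4 had rho of 0.74, 0.667 and 0.6 (adjusted exact permutation p of 0.123, 0.176 and 0.253), and Hoxc13 had rho = −0.858 (adjusted p = 0.0646).

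A further measure, the percent of the summits in a list with fewer fragments than the highest summit of the window, was added likewise. Over the genome 109 of 14675 genes (0.743%) rose by it. Hoxc9, Hoxc8, Hoxc10 and Hoxc6 were called, with rho of 0.95, 0.933, 0.862 and 0.879 and adjusted exact permutation p of 0.0237, 0.0249, 0.0494 and 0.0474. In the unnumbered libraries Hoxc9 stood above 25.7% of the list at 72 h and above 80.8% at 96 h, and above 98.9% at 168 h. The values of Hoxc10 were 19.4, 21.6 and 97.4% (72, 108 and 168 h). With 1 stage left out 0 to 2 members were called by this measure.

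At 96 h and 120 h there were 3 wt libraries each, so that replicates could be set against each other. The window of Hoxc10 was covered over 0% in each of the 3 libraries at 96 h and over 4.92, 11.1 and 14.1% at 120 h. Of 13577 genes 4.07% were higher at 120 h in all libraries in this way, and Hoxc10 was the only member. Hoxc8 was covered over 53.6 to 54.9% at 96 h and over 39.7, 39.8 and 48.3% at 120 h. Hoxc5 was covered over 51.2 to 55.5% at 96 h and over 27.7, 30.6 and 30.9% at 120 h. These 2 of the 9 members were lower at 120 h in all libraries, which is about the rate over all genes (21.9%). The other members overlapped or had no region. Somite marker promoters with a region numbered 1 of 4 at 96 h and 4 of 4 at 120 h in the unnumbered libraries. Every other marker list fell between these stages, neural tube genes from 2 to 0 of 4. The part of cell types in these differences was not tested. An exact permutation test of 3 against 3 libraries cannot go below p = 0.1, so no p is given.

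By local density H3K27me3 was densest over the posterior genes, and it was called over Hoxc4 in none of the 6 wt lists. These were 1 list at 72 h, 3 at 96 h (replicate 1, unnumbered, replicate 2), 1 at 120 h and 1 at 144 h, and the values follow in that order. With the stretches between genes counted, the posterior segment was covered over 2.62, 11, 5.27, 16.1, 12.8 and 8.51%. The anterior segment was covered over 3.47, 11.5, 4.81, 12.2, 4.81 and 1.52%. A clear posterior excess by this count was thus limited to the single lists of 120 h and 144 h. Hoxc13 was covered over 0, 18.7, 17.4, 23.6, 18.8 and 3.74% of its window. Hoxc12 was covered over 9.56, 7.13, 10.4, 13.4, 30.6 and 28.2%, and was the only member with a region in all 6 lists. Hoxc11 was covered over 6.33, 12.2, 0, 27.7, 37.9 and 29.9% and Hoxc10 over 0, 9.67, 13.2, 24.8, 18.4 and 5.2%. The 3 libraries of 96 h alone spanned 0 to 27.7% for Hoxc11 and 9.67 to 24.8% for Hoxc10, and the other stages have 1 library each.

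Over the anterior genes the windows were covered over 0 to 19.3%, with Hoxc9 covered in 2 of 6 lists, Hoxc8 in 3, Hoxc6 in 3 and Hoxc5 in 3. The stretch between Hoxc8 and Hoxc6 carried a region in 6 of 6 lists and that between Hoxc5 and Hoxc4 in 1 of 6. By local density, where regions were called, Hoxc12 stood at 26 to 47 times the lowest background and Hoxc10 at 13.8 to 31.3. Hoxc9 stood at 16.6 and 17.9, Hoxc8 at 16.8 to 17.9, Hoxc6 at 7.57 and 8.84, and Hoxc5 at 5.36 to 5.71. In the 3 libraries of 96 h Hoxc10 stood at 113 to 117% of Hoxc13 in the same list, and at 90.2% and 60.8% at 120 and 144 h. Since 1 library was taken at 120 h and 1 at 144 h, that difference has no replicate check. At 120 h a region lay within 1 kb of the start of 7 members, against 18.9% of all genes. Called regions of H3K27me3 and H3K27ac shared 0 kb of the cluster at 72 h, 0.322 to 1.42 kb at 96 h, 1.42 kb at 120 h (14.4% of the H3K27ac length) and 0.501 kb at 144 h.

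NIPBL was called from 84 h on over Hoxc4 and from 96 h on over Hoxc5, and over the other members less regularly. Hoxc4 was covered over 0, 16.4, 17.3, 25.9, 19.9, 21.9, 27.2 and 31.3% of its window at 72, 84, 96, 108, 120, 132, 144 and 168 h. Hoxc5 was covered over 0, 0, 21.1, 27.8, 24.6, 21, 40.7 and 39.6%. Hoxc9 was covered over 4.71, 0, 6.91, 14.3, 6.09, 9.95, 36.7 and 14% and Hoxc10 over 0, 0, 3.02, 2.38, 0, 7.29, 18.3 and 13.6%. Hoxc11 was covered at 72 h (5.27%) and 84 h (4.19%) and at no later stage.

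Hoxc4 rose over the 8 stages (rho = 0.929, r = 0.851, exact permutation p of 0.00223 and 0.00526, adjusted p of 0.0419 and 0.0441, r = 0.746 without the outermost 2 stages). It was 1 of 9 members called, against 835 of 13024 genes (6.41%) rising and 0 (0%) falling. The call of Hoxc4 was lost with 7 of the 8 stages left out in turn, and the length of the NIPBL lists, 6652 regions at 72 h and 37907 at 168 h, moved along with it. When each list was held to the same number of regions, adjusted p was 0.151 with rho = 0.905. The part of list length in this rise was not otherwise tested. Hoxc5 had rho = 0.802 (adjusted exact permutation p = 0.0888) and r = 0.889 (adjusted p = 0.0407).

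The local density of NIPBL at Hoxc9 also drew level with that at Hoxc5. It was 44.5% of Hoxc5 at 96 h, then 52.7, 60.7, 81.9, 102 and 97.2% (108, 120, 132, 144 and 168 h). That at Hoxc10 was 39.7% of Hoxc5 at 96 h, then 25.6, 31.8, 46.5 and 62.7% (108, 132, 144 and 168 h). Of 12775 genes 0 passed the test of local density against time in NIPBL, while 22.5% rose and 0.329% fell at an unadjusted p under 0.05 (exact permutation test). At that level 6 of the 8 members tested rose and Hoxc11 fell (rho = −0.764). Hoxc4, Hoxc5 and Hoxc9 had rho of 0.976, 0.97 and 0.952, each with adjusted exact permutation p = 0.0632.

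PolII was called mainly at Hoxc5, Hoxc4 and an intergenic region. At 72 h no member had a region. From 84 h to 168 h Hoxc5 was covered over 25.5, 26.6, 16.8, 20.6, 22.8, 22.6 and 17.8% of its window, which makes it the only member covered at all 7 stages. Hoxc4 was covered over 19.8, 15.5, 0, 23.6, 7.44, 9.46 and 0%. Hoxc9 was covered at 96, 108 and 120 h (16.4, 3.97 and 4.55%) and Hoxc8 at 108 h and 168 h (3.98 and 4.62%). The start of Hoxc9 lies outside its window, and a PolII region near that start (102977287 to 102977473) was called at 144 h and 168 h. Hoxc10 was covered at 120, 144 and 168 h (2.61, 7.19 and 3.85%), and Hoxc13, Hoxc12, Hoxc11 and Hoxc6 at no stage.

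Between Hoxc8 and Hoxc6, outside every gene window, a PolII region (102997787 to 102998457) was called at 7 of 8 stages, all but 72 h. A neighbour (102998843 to 103000185) was called at 5 of 8. NIPBL was called over the former at 5 of 8 stages (102997949 to 102998353), CDX2 at 96 h (102998027 to 102998241) and at 120 h, and RAD21 in 4 of 16 wt lists. No member passed the test of PolII coverage against time, nor did any gene (0% rising and 0% falling of 11063), with 716 genes at an unadjusted p under 0.05, among them Hoxc10 (rho = 0.764, exact permutation p = 0.0476, adjusted p = 0.741).

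The elongating form of the enzyme, pSer2 PolII, was called over Hoxc5 alone of the 9 windows, over 12.7, 13.2 and 10.1% of its window (96, 120 and 144 h), and not in the 72 h or the 84 h list. It was called within 1 kb of the start of 1 member at 96 h, against 39.2% of all genes. In the stretches between the genes it was called at 96 h only, in the neighbour region between Hoxc8 and Hoxc6. The 84 h list held 3987 regions and the 96 h list 24177, so that the absence at 84 h is also an absence in a short list. The 72 h list held 21823.

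Between the start and the end of the course, regions appeared at several HoxC promoters, taken as 1 kb on either side of the start. H3K27ac lay at the promoters of 3 members at 48 h (54.9% of all genes) and 7 at 168 h (50.3%). It was gained between these stages at Hoxc11, Hoxc8, Hoxc6, Hoxc5 and Hoxc4, against 3.5% of all genes, and lost at Hoxc13. The 48 h list held 67663 regions and that of 168 h 36784, and when both are held to the same number 7 members gained a region and 0 lost one. PolII lay at 4 promoters at 168 h (47% of all genes), and all 4, of Hoxc10, Hoxc9, Hoxc8 and Hoxc5, were gained since 72 h, against 1.64%. NIPBL lay at 6 promoters at 168 h (46.3% of all genes), and these 6, of Hoxc13, Hoxc10, Hoxc9, Hoxc6, Hoxc5 and Hoxc4, were gained since 72 h, against 31.3%. With 1 library a stage these counts have no test, and the NIPBL count is 2 when both lists are held to the same number of regions.

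Besides the 5 CTCF sites, RAD21 was called in 10 or more wt lists at 3 places. The first, beside Hoxc13 (102920681 to 102920998), held a CTCF region in the 72 h wt list only and RAD21 in 11 of 16 wt lists. The other 2 overlapped no region of a wt CTCF list. A region over the coding span of Hoxc4 (103034748 to 103036000) was called in 11 of 16 wt lists, from 48 h to 144 h, and in all 3 edited RAD21 lists. It overlaps a CTCF region of 2 edited lists, with a motif match on the minus strand. A region between Hoxc13 and Hoxc12 (102932293 to 102932764) was called in 10 of 16. Hoxc11 carried RAD21 over 46.4% of its window at 48 h, 43.2% in replicate 2 at 72 h and 17.6% in replicate 2 at 84 h, and over 0% in the other 72 h and 84 h libraries. These 3 libraries are all filed under cell line, and the 168 h library (5.22%) under cell type, and the cell line libraries from 96 h on held 0%. Of the 6 members tested against time 0 were called, as was no gene (0% rising and 0% falling of 11295), with 1224 genes and 0 members at an unadjusted p under 0.05 (exact permutation test of rho). Hoxc11 had rho = −0.685 and r = −0.731 (adjusted exact permutation p of 0.577 and 0.465), with rho of 0.612 within the cell type libraries and −0.906 within the cell line libraries, and Hoxc4 had rho = 0.168 (adjusted p = 0.931).

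The genes that act with or upstream of HoxC were read from lists chosen beside the members. Of 28 other Hox genes tested for H3K27ac coverage 1 rose, Hoxd9 (rho = 0.95, adjusted exact permutation p = 0.0458), and 0 fell. Of the Hox cofactors 0 of 9 were called for H3K27ac, and Meis1 rose for NIPBL (rho = 0.976, adjusted exact permutation p = 0.0347). Of the 3 Cdx genes 0 were called in any of the 4 assays tested. Of 11 Polycomb genes tested 1 fell for H3K27ac, Cbx7 (rho = −0.95, adjusted exact permutation p = 0.0458), and of 9 tested 1 rose for NIPBL, Jarid2 (0.929, 0.0419). For NIPBL, by which 6.41% of all genes rose, 2 of 26 other Hox genes rose, Hoxb2 (0.946, 0.0347) and Hoxb3 (0.927, 0.0419). In PolII and RAD21 none of these lists held a call.

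The genes outside the Hox clusters whose coverage was most like the mean of the 9 members, over the 25 wt libraries of H3K27ac (unnumbered), PolII and NIPBL, were Cdh2 (r = 0.856), Tmem132c (0.835), Rspo3 (0.797), Mex3b (0.791) and Igfbp4 (0.78). Cdh2 encodes N-cadherin and Rspo3 a potentiator of Wnt signals. Among the members themselves r to that mean ran from 0.847 (Hoxc5) and 0.809 (Hoxc9) to 0.118 (Hoxc13) and −0.0335 (Hoxc11). These libraries share stages and list lengths, so the values are a description.

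The identity of the samples was read from H3K27ac at marker promoters. At 48, 96, 120 and 168 h, in the unnumbered libraries, 5, 3, 2 and 2 of 6 pluripotency genes carried a region. At the same stages 3, 6, 5 and 5 of 6 genes of the primitive streak and tail bud did so, and 1, 1, 4 and 2 of 4 somite genes. Regions at endoderm genes (1, 2, 1 and 2 of 3), neural tube genes (1, 2, 0 and 2 of 4) and cardiac and vascular genes (1, 2, 1 and 0 of 5) were present too. The part of changing cell types in the HoxC values was not tested.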

How the data were processed

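The deposited data were lists of called regions (narrowPeak) from ChIP-seq (H3K27ac, H3K27me3, CDX2, pSer2 PolII) and ChIPmentation (CTCF, RAD21, NIPBL, PolII) of wild-type and edited mouse stembryos. Reads were trimmed by the authors with cutadapt 1.16, mapped with Bowtie2 2.3.4.1 (genome mm10), passed through SAMtools 1.8 and called with MACS2 2.1.1.20160309 with no input, so the background is estimated from the library itself. Version numbers are from the submitters' processing notes. The width over which the local background was taken is not given in the sources used here. The reads of the 3 pSer2 samples of 144 h were joined by the authors into 1 list, and CTCF reads of Ins(2xCBS-d4d8) were mapped to an edited chromosome 2.

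The lists give, as deposited by the authors, a score (10 times −log10 q), the fold enrichment at the summit over the local background, and −log10 p and −log10 q. Fold enrichment and −log10 p together give the fragments over the summit and the local background (Poisson, tolerance 0.001). Broad H3K27me3 domains are broken up in such lists. Fold enrichment and fragments were not compared between lists except after scaling within the list. Overlapping regions were merged, and the percent of each gene window they cover was taken (GENCODE vM21, 21829 genes, sequence from GRCm38). Trends used Spearman's rho and Pearson's r against hours with exact two-sided permutation of the stages and Benjamini-Hochberg adjustment over all genes or sites with a value. A call is an adjusted p under 0.05. For H3K27ac the 9 unnumbered wt libraries were fitted and the numbered ones held apart. Scripts were tested on simulated data. Intervals are Clopper-Pearson at 95% and cover counting error only, and depth is known only through the lowest background of each list.

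The members, the gene lists and the tests were chosen with earlier results of these data known. Named genes are the 9 members, of each list those called among its highest and lowest rho, and the 5 genes outside the Hox clusters with the highest r to the member mean. One further gene of the lists is not reported here. Local density and pileup rank were added after seeing the data. Alternatives were other windows, thresholds on q, equal list length, Pearson's r and leaving out each stage or replicate. Lists of edited stembryos entered the counts of CTCF and RAD21 lists and the closing section only. Analyses used Python 3.11.15, numpy 2.4.6, pandas 2.3.3, scipy 1.17.1 and matplotlib 3.10.9.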

Additional observations from a re-analysis of the deposited data

Results flagged for a closer look

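In the H3K27ac lists of stembryos edited at HoxD, outside the comparisons above, only windows covered more widely than in wt were looked for. Such windows were about as frequent among the members as among all genes, whose shares are given beside them. Some HoxC windows were covered more widely in both edited libraries than in all 3 wt libraries of the same stage. With Del(CBS1) at 120 h this held for Hoxc9, at a mean of 19.5% (19.1 to 19.9% against 5.6 to 17.8% in wt), and for Hoxc5, at 39.3% (36.1 to 42.5% against 27.7 to 30.9%). Of 12700 genes 23.2% did likewise. With Del(CBS1-2) at 96 h it held for Hoxc9, at 35% (28.1 to 41.8% against 15.3 to 25.9%), as for 9.4% of 13440 genes.

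With Del(CBS1-2) at 120 h it held for Hoxc10 at 19.3% (18.6 to 20% against 4.92 to 14.1%), Hoxc9 at 23.5% (21.9 to 25.1% against 5.6 to 17.8%), Hoxc6 at 23.6% (22.8 to 24.3% against 5.8 to 13.8%) and Hoxc5 at 37.5% (33.9 to 41.2% against 27.7 to 30.9%). Of 12530 genes 36.9% did likewise. At 120 h the edited lists were also longer, with 61894 to 63020 regions against 32590 to 53644 in wt, and at 96 h they held 55940 and 56828 against 42641 to 59284. The part of list length was not tested. The Del(CBS1-2) libraries carry a cell line label and the wt ones a cell type label, so that genotype and label cannot be told apart. Within a list, the local density of Hoxc9 was 67.5 and 63.2% of that of Hoxc5 with Del(CBS1) and 82.7 and 77.9% with Del(CBS1-2) at 120 h, against 57.8 to 81.9% in wt. That of Hoxc10 was 11.7 and 12.1% with Del(CBS1) and 16.3 and 13.1% with Del(CBS1-2), against 17.8 to 21.5% in wt. Hoxc10 stood at only 2.11 to 4.9 times the lowest background in these edited libraries, and no share over all genes was taken.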

How the results depend on the processing

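Of 134 alternative values over 10 results, 88 kept their direction and side of the threshold (or, for counts, lay within 1.5 times), 34 moved, 12 lost their call and 0 reversed. A reversal could be recorded only for the NIPBL trend of Hoxc4, the only member trend called in the reported fits. The other alternatives were counts, many of them 0 against 0, and their signs were not compared. At the Hoxc5 RAD21 site, for example, rho turned from 0.524 to −0.143 with the replicate block. H3K27ac members called numbered 0 in the reported fit by covered share. By local density they numbered 2 (Hoxc9 and Hoxc8), with the numbered libraries 1 (Hoxc9), and with each stage left out 1 to 2. By pileup rank they numbered 4, with the numbered libraries 5 (Hoxc13 falling among them), and with each stage left out 0 to 2. NIPBL members called numbered 1 in the reported fit, 2 by Pearson's r, and 0 with equal list length, with −log10 q of at least 5, with a window of 5 kb, by local density and by pileup rank, and 0 to 1 with each stage left out. For Hoxc4 rho was 0.571 to 1 over these alternatives, with adjusted exact permutation p of 0.0229 to 0.352. H3K27ac promoters gained numbered 3 within 2.5 kb of the start, against 5. NIPBL promoters gained numbered 3 with −log10 q of at least 5 and 2 with equal list length, against 6. CTCF sites numbered 4 with −log10 q or fold enrichment of at least 5, against 5. Apart from list length and thresholds on q, which shorten the lists by construction, the cause was not tested.

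Same-numbered RAD21 libraries of 6 stages deviated together, with correlations of 0.431 to 0.628 between stages from 84 h on and of 0.0656 to 0.164 between 72 h and the others, in all over 0.1 in 13 of 15 pairs of stages. As the labels name no shared batch and 2 pairs were lower, the block was kept as an alternative, and whether the numbers mark batches is not settled. With a replicate block (numbers 1 and 2) 0 HoxC sites and 0 members were called for RAD21, as without it, while the calls over all 20003 sites rose from 2247 to 4076. Covered share does not register a gain of signal inside a region already called. Local density is scaled to the lowest background of its own list, so that the enrichment of the whole library enters its course over stages. Its percent of Hoxc5 needs no scale between libraries. As no value can lie below the lowest background, the enrichment of the library enters that percent too. At 108 h Hoxc11 stood at the lowest background and still at 6.13% of Hoxc5. Further, a region missed in a short list cannot be told from an absent one.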
